A study of Homo sapiens with 18 samples.

Results

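The genes described here are 9 interferon-response genes, CXCL10, IRF1, IFIH1, ISG15, IFIT1, IFIT2, IFIT3, MX1 and OAS1, followed across all 6 groups of a Hep3B RNA-seq experiment. They were taken by name from a table of 36684 gene symbols, and each name matched 1 row. Of the 9 genes, 8 passed the filter on low counts, as did 14557 genes in all, and OAS1 did not. Hep3B is a human hepatoma cell line, and no group was drawn from a tissue. Con was the untreated control, and Model was the steatosis model made with free fatty acids (FFA). FUCO-0.5, FUCO-1 and FUCO-2 were FFA together with fucoxanthin, a marine carotenoid, at 0.5, 1 and 2 μM. RES was FFA together with Resmetirom, an agonist of thyroid hormone receptor beta, so every group but Con carried FFA. Each group had 3 libraries, and the FFA concentration, the times and the RES dose of these libraries are not given in the sources used here.

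Interferons are secreted proteins that bind receptors coupled to the kinases JAK1, JAK2 and TYK2, which activate transcription factors of the STAT family. STAT2 and IRF9 take part in a complex that binds the interferon-stimulated response element (ISRE) of genes such as ISG15, the IFIT genes, MX1 and OAS1, whose products act against viruses. The gamma-activated site (GAS) is another element of the response, as in IRF1, which is itself a transcription factor. IFIH1 (MDA5) is a cytosolic sensor of double-stranded RNA that signals through MAVS toward interferon production. CXCL10 is a chemokine that draws T cells through the receptor CXCR3, and its promoter is a textbook example of one read by both interferon-activated factors and NF-kB. In hepatocytes it is known as a product of lipid-loaded cells as well as of infected ones.

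The sequence just ahead of the start of 4 of these genes is shown because the genes differ in which of these elements they hold there. Each run is the 250 bases before the outermost start in the RefSeq table of GRCh38.p14, read 5′ to 3′ on the strand of the gene, and 8 of the 9 genes had an entry. Capitals mark matches, on either strand, to the ISRE core (GAAA, any 2 bases, GAAA), the GAS form TTCNNNGAA or an NF-kB form (GGGA, any 4 bases, CC), where N is any base.
CXCL10, chr4:76023498-76023747, GRCh38.p14, minus strand: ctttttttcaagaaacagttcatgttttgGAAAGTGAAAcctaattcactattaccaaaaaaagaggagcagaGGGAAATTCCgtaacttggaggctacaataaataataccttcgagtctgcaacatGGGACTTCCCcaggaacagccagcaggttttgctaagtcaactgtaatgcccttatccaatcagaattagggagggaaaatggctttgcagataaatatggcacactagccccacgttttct
IRF1, chr5:132490774-132491023, GRCh38.p14, minus strand: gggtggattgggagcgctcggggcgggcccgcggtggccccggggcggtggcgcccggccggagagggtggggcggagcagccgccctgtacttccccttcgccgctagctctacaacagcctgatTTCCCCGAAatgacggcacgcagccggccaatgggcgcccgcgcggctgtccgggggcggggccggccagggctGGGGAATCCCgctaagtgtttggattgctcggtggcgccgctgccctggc
IFIH1, chr2:162318685-162318934, GRCh38.p14, minus strand: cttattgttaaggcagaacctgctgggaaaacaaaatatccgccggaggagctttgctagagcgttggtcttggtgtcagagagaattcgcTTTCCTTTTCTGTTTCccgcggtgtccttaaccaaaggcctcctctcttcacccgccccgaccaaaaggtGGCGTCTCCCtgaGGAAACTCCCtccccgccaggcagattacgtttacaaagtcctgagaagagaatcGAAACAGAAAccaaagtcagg
IFIT1, chr10:89392373-89392622, GRCh38.p14, plus strand: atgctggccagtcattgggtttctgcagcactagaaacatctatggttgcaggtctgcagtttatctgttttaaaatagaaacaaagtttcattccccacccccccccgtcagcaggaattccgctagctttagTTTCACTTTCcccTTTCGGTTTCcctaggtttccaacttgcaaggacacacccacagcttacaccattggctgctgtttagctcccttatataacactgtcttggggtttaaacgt
CXCL10 held 1 ISRE core, starting 221 bases before its start, and 2 NF-kB forms, at 177 and 122 bases. IRF1 held a GAS form at 124 bases and an NF-kB form at 50 bases. IFIH1 held 3 ISRE cores, at 159, 153 and 21 bases, of which the first and second overlap, and 2 NF-kB forms, at 89 and 76 bases. IFIT1 held 2 ISRE cores, at 116 and 103 bases, and neither of the other forms. Over the 8 genes with an entry, 5 held an ISRE core ahead of the outermost start, against 3.02% of 35116 windows in the table, taken over all starts. A GAS form was in 2 of the 8, against 6.57% of windows, and an NF-kB form in 4 of the 8, against 22.6% of windows. Ahead of a later start, which these counts of members leave out, MX1 held 1 ISRE core and 1 GAS form, and IFIT3 held 2 ISRE cores. A match of letters is a description and says nothing of whether a factor was bound in these cells.

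The libraries held 16916688 to 23083498 counts each. Levels are given in CPM, the count of a gene scaled by the depth of its library with TMM factors, with the SD over the 3 libraries of a group, and fold changes come from edgeR's quasi-likelihood fit of all 18 libraries. A gene was called at a Benjamini-Hochberg adjusted p under 0.05 over all 14557 genes tested. Defining hepatocyte genes were abundant in every library, although their summed level was lower with FFA (57594 to 58415 CPM in Model against 72528 to 80660 CPM in Con). It was lower again in FUCO-1 (51598.2 to 54872.5 CPM), FUCO-2 (40525 to 44108 CPM) and RES (17201 to 18256 CPM). In FUCO-0.5 the sum (47922.5 to 59827.8 CPM) overlapped that of Model. The largest part was ALB (40980 CPM in Con). Of the 10 genes, TTR (179 CPM in Con, 209 in Model), SERPINA1 (2957 and 3475) and HNF4A (333 and 335) were not lower in Model, and the others were. In RES, FGB alone was above Model (150 against 112 CPM). In bulk RNA, fewer cells of a kind and less RNA per cell cannot be told apart. Markers of T, NK and B cells summed to under 1 CPM in every library. Those of stellate cells and fibroblasts summed to 28.1 to 36.7 CPM in Con, 18.5 to 20.4 CPM in Model and 11.3 to 13.8 CPM in RES. Most of the latter sum was PDGFRB (18.3 CPM in Con, 12.3 in Model and 1.16 in RES) and LUM (13.6, 4.72 and 7.999). COL1A1 (1.06, 1.37 and 2.13 CPM) and COL1A2 (0.225, 0.915 and 1.103) went up instead, so these markers did not move together. COL3A1 and ACTA2 were at 0 in all 18 libraries. Replicates differed by more than sampling noise in every pair, by a chi-square per degree of freedom of 2.26 to 18.7. Con replicate 1 (12.8 and 15.1 against the others) and FUCO-2 replicate 1 (18.04 and 18.68) stood apart within their groups. So did FUCO-0.5 replicate 2 (10.1 and 17.3) and FUCO-1 replicate 3 (9.71 and 10.7). Without Con replicate 1 the log2 fold change of CXCL10 in Model against Con was 3.01 (adjusted p = 7.17e-06), and without FUCO-2 replicate 1 no member was called in FUCO-2 against Model.

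The interferon-response genes were expressed at low levels, and the order among them changed little between groups. Per kilobase of exon (GENCODE v44 exon union), the level of ISG15 was 11.97 CPM in Con and 13.2 CPM in RES, the highest of the 9 in each of the 6 groups. IFIH1 had 2.34 CPM per kilobase in Con, where CXCL10 had 0.439, IRF1 0.316 and IFIT2 0.210. CXCL10 moved above IFIH1 in Model, where it had 2.57 CPM per kilobase and IFIH1 2.41. By this measure MX1 and OAS1 were the lowest in every group, with 0.0708 and 0.00301 CPM per kilobase in Con. The exon union joins the exons of all transcripts of a gene and was longest for MX1 (17984 bases), then OAS1 (13021) and IRF1 (12265). The order therefore depends on this length. Without it MX1 had 1.27 CPM in Con, above IFIT2 (0.908), IFIT3 (0.705), IFIT1 (0.557) and CXCL10 (0.515). The plot of levels by library shows the same genes without the length correction.

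**Figure D1:**
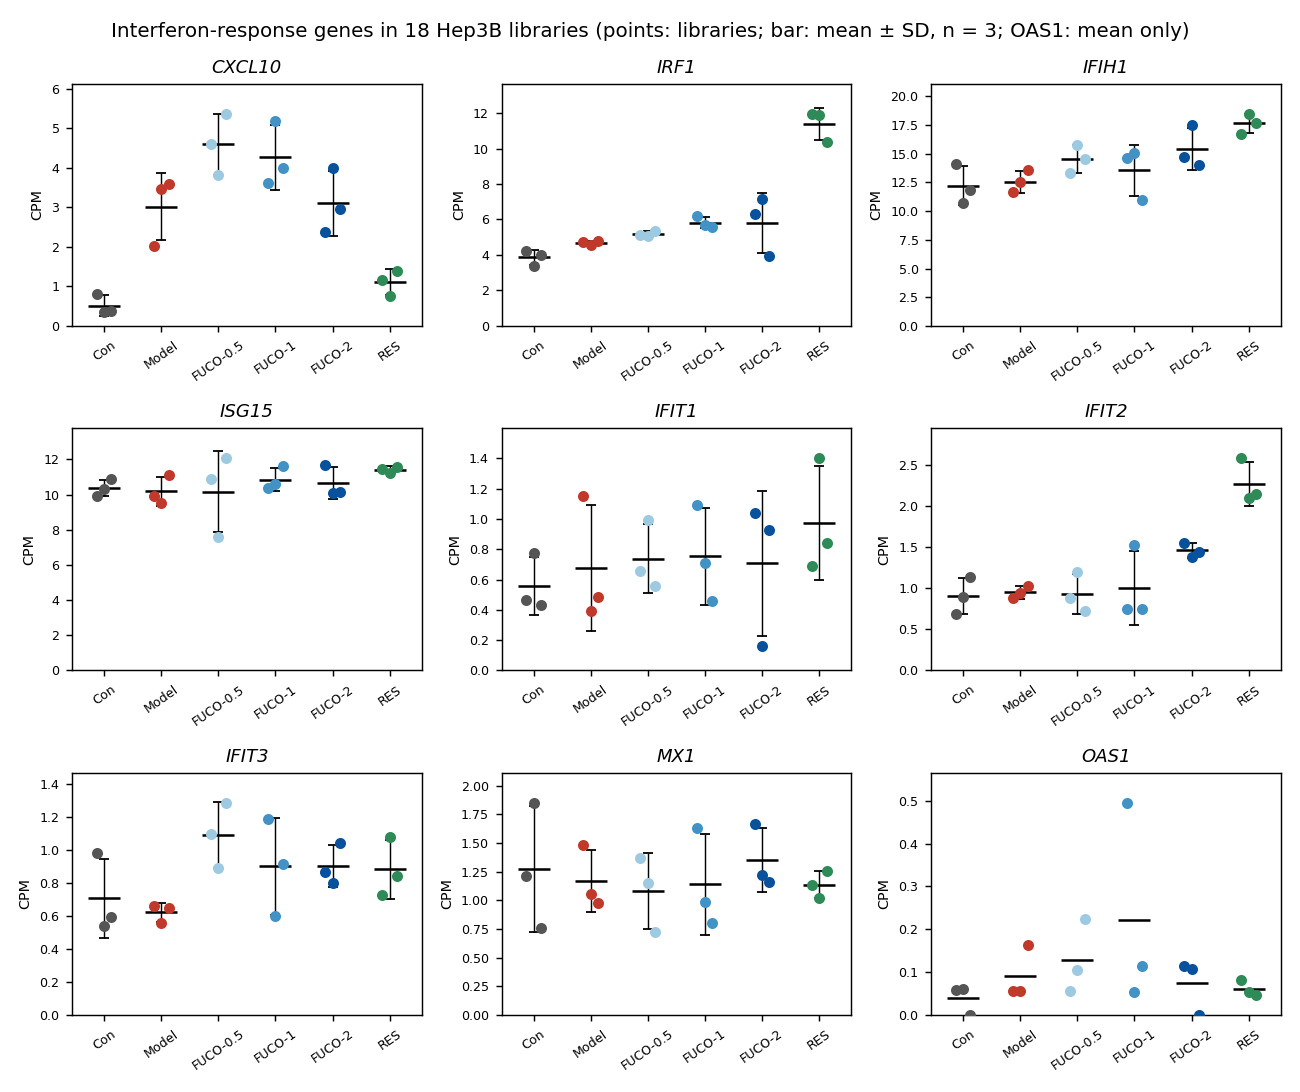
Level of each of the 9 genes (CPM, axis from 0) in the 18 libraries, by group. Points are libraries, and bars are the mean ± SD of 3 (mean alone for OAS1); CXCL10 stands above Con in Model and all FUCO groups, and IRF1 and IFIT2 are highest in RES.

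Against Con, FFA alone moved 1 of the 8 tested genes, CXCL10, and the share (1 of 8) is close to the 17.6% of all genes called in that comparison. CXCL10 held 14, 6 and 7 counts in Con and 37, 62 and 66 in Model. Its level rose from 0.515 ± 0.255 CPM to 3.02 ± 0.858 CPM, and no Model library lay within the range of Con. The fold change was 5.81 (log2 2.54, SE 0.34, adjusted p = 1.09e-05). Of all genes, 1.95% were called in this comparison with an absolute log2 fold change over 1.

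IRF1 was the other gene whose Model and Con libraries did not overlap, as held for 35.7% of all genes, but it was not called. It held 73, 57 and 74 counts in Con and 86, 82 and 88 in Model, and the log2 fold change was 0.27 (SE 0.17, adjusted p = 0.306). The remaining 6 tested genes overlapped between the groups. Their log2 fold changes ran from −0.18 for IFIT3 to 0.29 for IFIT1, and the median over all 8 genes was 0.05, against 0.00106 over all genes tested. The intervals differed widely in width with the counts: the 95% interval was −0.30 to 0.24 for ISG15 and −0.79 to 1.37 for IFIT1, so a doubling of IFIT1 was not excluded at this depth.

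**Figure D2:**
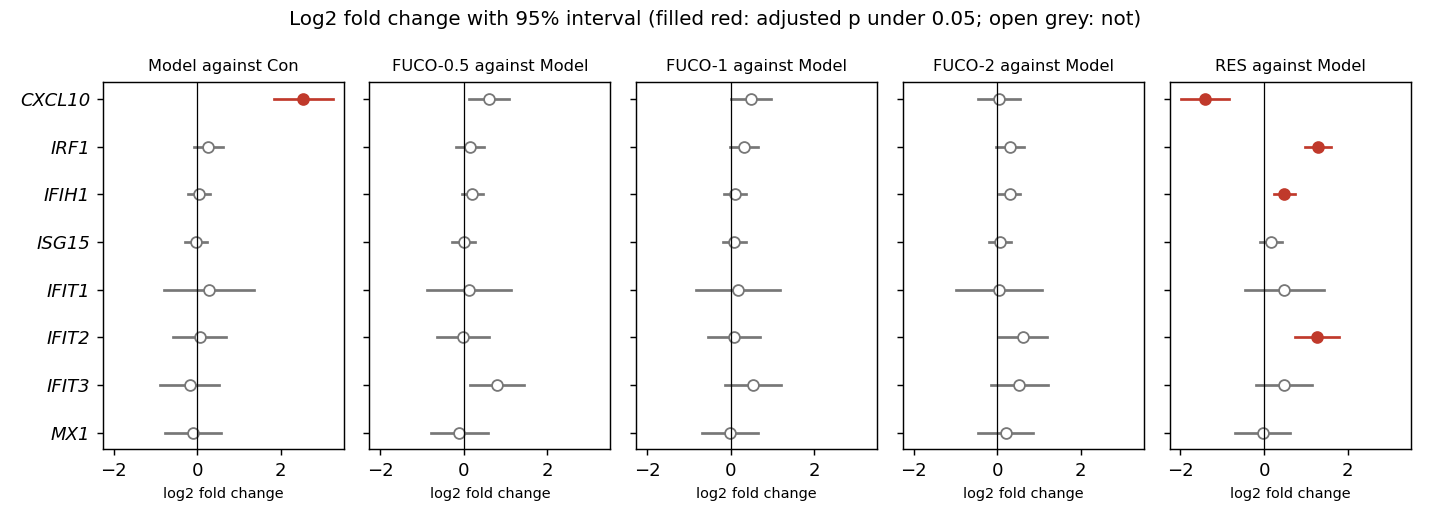
Log2 fold change (x axis) of the 8 tested genes in Model against Con and in each treatment against Model, with 95% intervals computed from the F of the fit. Filled red points have an adjusted p under 0.05: CXCL10 at 2.54 in Model against Con, and CXCL10, IRF1, IFIH1 and IFIT2 in RES against Model.

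Fucoxanthin with FFA gave no called change in the 8 genes at any dose in edgeR's fit, nor in DESeq2 with all 18 libraries. At 0.5 μM, 1.45% of all genes were called, at 1 μM 3.21% and at 2 μM 20.5%. At an unadjusted p under 0.05 the counts were 2, 1 and 2 of the 8 genes, where 11.3%, 16.3% and 33% of all genes passed. Libraries did not overlap with those of Model for 3 genes at 0.5 μM (19.6% of all genes), 2 at 1 μM (23.3%) and 3 at 2 μM (36.3%). The median log2 fold change over the 8 genes was 0.14 at 0.5 μM, 0.14 at 1 μM and 0.25 at 2 μM, where the medians over all genes tested were 0.000588, −0.00167 and 0.0096.

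CXCL10 held 84, 73 and 96 counts in FUCO-0.5, 73, 95 and 70 in FUCO-1, and 41, 75 and 51 in FUCO-2. The levels were 4.59 ± 0.771, 4.27 ± 0.821 and 3.10 ± 0.826 CPM. All libraries of FUCO-0.5 and FUCO-1 lay above those of Model, and those of FUCO-2 overlapped them. Against Model the log2 fold change of CXCL10 was 0.60 at 0.5 μM (95% interval 0.13 to 1.08, adjusted p = 0.279). It was 0.50 at 1 μM (95% interval 0.01 to 0.98, adjusted p = 0.287) and 0.05 at 2 μM (95% interval −0.46 to 0.55, adjusted p = 0.919).

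Between doses no member was called, in a pair where 0.00687% of all genes were (FUCO-1 against FUCO-0.5) and in pairs where 6.3% (FUCO-2 against FUCO-1) and 15.1% (FUCO-2 against FUCO-0.5) were. DESeq2 with all 18 libraries also called none. At an unadjusted p under 0.05, 0, 0 and 2 of the 8 genes passed in these pairs, against 10.7%, 20.3% and 28.6% of all genes. The largest difference for CXCL10 was between the lowest and the highest dose, a log2 fold change of −0.56 for FUCO-2 against FUCO-0.5 (95% interval −1.03 to −0.08, adjusted p = 0.110).

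Against Con, CXCL10 was called at every dose, with log2 fold changes of 3.14 in FUCO-0.5, 3.03 in FUCO-1 and 2.58 in FUCO-2. It was the only member called in FUCO-0.5 (21.9% of all genes), and IRF1 was called beside it in FUCO-1 (18.3%) and FUCO-2 (24.8%). IRF1 rose by a log2 fold change of 0.59 in FUCO-1 (adjusted p = 0.0156) and 0.58 in FUCO-2 (adjusted p = 0.0124). Both calls for IRF1 were lost without Con replicate 2 (adjusted p = 0.0841 and 0.0635). That for FUCO-1 was also lost without FUCO-1 replicate 1 (adjusted p = 0.0577), and that for FUCO-2 without FUCO-2 replicate 2 (adjusted p = 0.118). IFIH1, not called in FUCO-2 against Con (log2 fold change 0.33, adjusted p = 0.0545), was called there without Con replicate 1 (adjusted p = 0.0137), FUCO-1 replicate 3 (adjusted p = 0.0315) or FUCO-2 replicate 3 (adjusted p = 0.0406). Without FUCO-2 replicate 3, IRF1 was also called in FUCO-0.5 against Con (log2 fold change 0.42, adjusted p = 0.0310), where it was not with all libraries (adjusted p = 0.0823). IRF1 held 93, 97 and 96 counts in FUCO-0.5, 125, 104 and 98 in FUCO-1, and 110, 134 and 68 in FUCO-2. The third FUCO-2 library lay within the range of Con and the other two lay above every Model library. Without FUCO-2 replicate 3, IRF1 was called against Model at a log2 fold change of 0.53 (adjusted p = 0.0113), against 0.31 (adjusted p = 0.182) with all libraries. These comparisons with Con share the Con libraries with each other and with Model.

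RES moved 4 of the 8 tested genes against Model, beside 49.4% of all genes called there, so the share is near that of the table as a whole. IRF1, IFIT2 and IFIH1 rose (3 of 8, against 24.4% of genes called higher) and CXCL10 fell (1 of 8, against 25.1% called lower). With the fold threshold of the study's methods added, 3 members passed, against 9.91% of genes. Libraries of RES and Model did not overlap for 6 of the 8 genes, against 64% of all genes. The median log2 fold change over the 8 genes was 0.48, where that over all genes tested was 0.00233.

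IRF1 held 296, 221 and 222 counts in RES, against 86, 82 and 88 in Model. Every RES library was above every library of the other 5 groups. The level was 11.4 ± 0.906 CPM in RES and 4.68 ± 0.107 CPM in Model, a fold of 2.43 (log2 1.28, SE 0.15, adjusted p = 1.52e-07). In the annotation of GENCODE v44 the exons of IRF1 (chr5:132481609-132490773, minus strand) share 2805 bases with those of the antisense gene IRF1-AS1. They also share 486 bases with those of ENSG00000283782, on the plus strand. The sources used here do not say whether the counting used strand. How many of the IRF1 counts came from these shared stretches, which are part of the 12265 exon bases of IRF1, was not tested.

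IFIT2, one of a family of proteins that bind viral RNA, held 64, 39 and 46 counts in RES against 16, 17 and 19 in Model. The RES libraries lay above all others. Its level was 2.28 ± 0.267 CPM in RES and 0.951 ± 0.0759 CPM in Model (log2 fold change 1.26, SE 0.26, adjusted p = 0.000248). In FUCO-2 it held 27, 26 and 25 counts, above Model in each library, with a log2 fold change of 0.62 (95% interval 0.03 to 1.20, adjusted p = 0.129). IFIT2 (chr10:89302046-89309271, plus strand) shares 524 exon bases with ENSG00000232110 on its own strand and 65 with LIPA on the other strand. LIPA held 1016 to 1149 counts in Model and 1097 to 1377 in RES, with a log2 fold change of −0.04 (adjusted p = 0.806), and 565 to 742 counts in FUCO-2, where it fell by 0.73 on the log2 scale (adjusted p = 4.81e-05). The share of IFIT2 counts that came from LIPA or ENSG00000232110 was not tested.

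IFIH1 held 415, 343 and 379 counts in RES against 212, 226 and 250 in Model. The difference was smaller than for IRF1 and IFIT2 (log2 fold change 0.49, SE 0.12, adjusted p = 0.00197) and stayed below the fold threshold. Con held 244, 180 and 219 counts of it, and the treated groups held 242, 301 and 260 in FUCO-0.5, 296, 275 and 192 in FUCO-1, and 256, 328 and 242 in FUCO-2. Against Model the log2 fold change in FUCO-2 was 0.29 (95% interval 0.04 to 0.55, adjusted p = 0.1004), with all 3 libraries above those of Model.

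CXCL10 went the other way, with 29, 14 and 30 counts in RES. Its level of 1.11 ± 0.327 CPM was below every Model library, and the log2 fold change was −1.42 (SE 0.28, adjusted p = 0.000172). Against Con it was still higher, by a log2 fold change of 1.12 (95% interval 0.30 to 1.94, adjusted p = 0.0191), although the lowest RES library lay below the highest Con library. That call was lost without Con replicate 2 (adjusted p = 0.0805), Con replicate 3 (adjusted p = 0.0867) or RES replicate 3 (adjusted p = 0.0819), and in DESeq2 with the 2 groups alone (adjusted p = 0.0892). From the lowest level to the highest, CXCL10 was ordered Con, RES, Model, FUCO-2, FUCO-1 and FUCO-0.5. Con and RES (with the limit above), and RES and Model, differed by the test, while Model and FUCO-2, FUCO-2 and FUCO-1, and FUCO-1 and FUCO-0.5 did not pass it. Against Con, RES had 4 members called, all higher (CXCL10, IRF1, IFIT2 and IFIH1), beside 57.3% of all genes called and 28.8% called higher.

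The other effectors did not pass the test in any of these comparisons in edgeR's fit. With library size alone in place of TMM, ISG15 was called in RES against Con (log2 fold change 0.33, adjusted p = 0.0314). ISG15, a ubiquitin-like modifier, held 172, 173 and 201 counts in Con, 181, 171 and 205 in Model, and 284, 208 and 248 in RES. Its level stayed between 10.2 and 11.4 CPM over the 6 group means, and the log2 fold change in RES against Model was 0.16 (95% interval −0.10 to 0.43, adjusted p = 0.299). MX1, a GTPase that blocks viral replication, held 21, 31 and 14 counts in Con, 27, 19 and 18 in Model, and 28, 19 and 27 in RES, with overlap throughout. Its log2 fold change against Model ran from −0.11 in FUCO-0.5 to 0.20 in FUCO-2. MX1 shares 436 exon bases with ENSG00000228318 and 562 with TMPRSS2, both on the other strand. TMPRSS2 held 173 to 186 counts in Model and fell by 0.36 on the log2 scale in RES (adjusted p = 0.0189) and by 0.43 in FUCO-2 (adjusted p = 0.0175).

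IFIT1 and IFIT3, partners of IFIT2 in the same protein family, were read at few counts. IFIT1 held 8, 13 and 8 counts in Con, 21, 7 and 9 in Model, and 17, 26 and 18 in RES, and its groups overlapped. IFIT3 held 17, 9 and 11 counts in Con, 12, 10 and 12 in Model, 20, 17 and 23 in FUCO-0.5, and 18, 20 and 18 in RES. All FUCO-0.5 libraries of IFIT3 lay above those of Model, with a log2 fold change of 0.80 (95% interval 0.15 to 1.45, adjusted p = 0.296). IFIT3 shares 94 exon bases with LIPA, which held 747 to 1097 counts in FUCO-0.5 (log2 fold change −0.24 against Model, adjusted p = 0.402), and the share of IFIT3 or MX1 counts from these neighbours was not tested. OAS1, which makes the second messenger that activates RNase L, held 0 to 4 counts in every library except FUCO-1 replicate 1, which held 10. With a counting floor of 3, no fold is given for it.

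IFIT1, IFIT2 and IFIT3 lie in one cluster on chromosome 10, and of the 3 only IFIT2 passed the test in RES against Model. The log2 fold change there was 1.26 for IFIT2, 0.49 for IFIT1 (95% interval −0.45 to 1.42) and 0.48 for IFIT3 (95% interval −0.18 to 1.14). The intervals of IFIT1 and IFIT3 overlap that of IFIT2 (0.73 to 1.79), and the difference between the genes was not tested.

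CXCL10 (chr4:76021118-76023497, minus strand) lies within the span of ART3, a mono-ADP-ribosyltransferase gene, with no exon base shared in GENCODE v44. ART3 held 5 to 8 counts in Con, 19 to 35 in Model and 3 to 5 in RES. It rose in Model against Con (log2 fold change 2.14, SE 0.33, adjusted p = 6.55e-05) and fell in RES against Model (log2 fold change −3.01, SE 0.36, adjusted p = 1.95e-07). CXCL10 was thus higher and lower in the same comparisons as ART3. Over the 18 libraries the Pearson correlation of their log2 CPM was 0.80, among libraries that share groups. The ART3 level was 1.53 CPM in Model, 1.51 in FUCO-0.5, 1.07 in FUCO-1 and 0.996 in FUCO-2, and neither gene was called against Model at any dose. With RES, ART3 was at 0.185 CPM, under its Con level of 0.340 CPM, whereas CXCL10 was above its own. How many reads were shared between the genes was not tested.

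**Figure D3:**
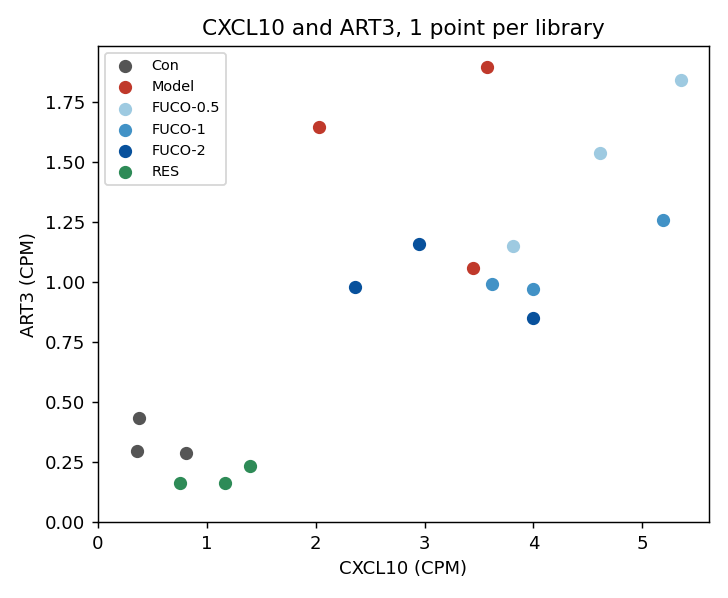
Level of ART3 (CPM, y axis) against that of CXCL10 (CPM, x axis) in the 18 libraries, 1 point per library, coloured by group. Con and RES libraries lie at the lower left, under 1.5 CPM of CXCL10 and under 0.5 CPM of ART3.

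The genes most like CXCL10 over the 18 libraries, by Pearson's correlation of log2 CPM among 13071 genes with a mean of at least 1 CPM, were PIK3AP1 (0.95), CTSC (0.94), IKBKE (0.93), CXCL6 (0.93) and LYZ (0.92). For IRF1 they were EBNA1BP2, EPDR1, PLCH1, BCAT2 and TMT1B, at 0.93 to 0.94, and for IFIT1 the highest was 0.70, for CCDC30. These values describe libraries that share groups, so they follow the group differences. Among the members themselves, IRF1 correlated at 0.73 with IFIT2 and 0.78 with IFIH1, and at −0.02 with CXCL10.

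LYZ, which encodes lysozyme and is listed among the macrophage markers, moved with CXCL10. It rose in Model against Con (log2 fold change 2.33, adjusted p = 1.48e-09) and fell in RES against Model (log2 fold change −1.40, adjusted p = 3.95e-08). The 8 macrophage and dendritic cell markers summed to 5.57 to 7.46 CPM in Con, 16.1 to 21.8 CPM in Model and 17.03 to 18.57 CPM in RES. Of these 8, 3 (MARCO, FCGR3A and CLEC4C) were at 0 in all 18 libraries, and PTPRC, the pan-leukocyte gene, held 7 counts over all 18 libraries. The rise of the sum was that of LYZ in Model and of CD14 in RES, where CD14 was at 11.7 CPM against 3.58 CPM in Model. Endothelial markers summed to 0.299 to 1.04 CPM in Con, 1.21 to 1.52 CPM in Model and 0.746 to 1.21 CPM in RES, with 2 of 5 at 0 in all libraries. Their part in the CXCL10 differences was not tested.

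Upstream of the members, transcripts of the interferons themselves were near the limit of detection. Of 21 interferon genes listed, 18 were at 0 in all 18 libraries, the sum over all genes and libraries was 4 counts, and no library held more than 1 count of any. CXCL9 and CXCL11, the chemokines that share CXCR3 with CXCL10, held at most 1 and 3 counts in a library, and CXCR3 at most 2. DPP4, the protease that trims CXCL10, was at 114 ± 11.1 CPM in Con and 128 ± 3.53 CPM in Model, and was not called against Con or Model in the 5 main comparisons.

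The receptors and JAK-STAT genes were all expressed, 13 of 13 tested. In Model against Con 3 were called (23.1%, against 17.6% of all genes). Among them were JAK1, higher by a log2 fold change of 0.35, and STAT3, lower at −0.27. The call for STAT3 was lost without Con replicate 2 (adjusted p = 0.0797) or Con replicate 3 (adjusted p = 0.0758). In RES against Model 7 were called (53.8%, against 49.4% of all genes), so the share is near that of the table as a whole. Among them, STAT3 (0.49), IFNGR1 (0.35), IFNAR1 (0.23) and STAT2 (0.21) were higher and IFNLR1 (−0.75) and TYK2 (−0.30) lower. No member of this list reached the fold threshold, and some calls rested on single libraries. That for TYK2 was lost without Model replicate 1 (adjusted p = 0.115) or RES replicate 3 (adjusted p = 0.0867), and that for IFNAR1 without Model replicate 1 (adjusted p = 0.0587) or Model replicate 3 (adjusted p = 0.0518). That for STAT2 was lost without Model replicate 2 or 3 or any 1 RES library (adjusted p up to 0.140).

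Other genes of the response, taken from lists of antiviral genes, of genes of interferon-gamma and antigen presentation, of sensors and their adaptors, and of feedback regulators, moved in both directions. With the receptors, the interferons and the relatives of CXCL10, 142 genes were listed and 87 tested. In Model against Con 22 of the 87 (25.3%, against 17.6% of all genes) were called, 17 higher and 5 lower, with a median log2 fold change of 0.04. In RES against Model 46 (52.9%, against 49.4%) were called, 28 higher and 18 lower, with a median of 0.13. In the FUCO groups 1, 3 and 10 of the 87 were called at 0.5, 1 and 2 μM (1.15%, 3.45% and 11.5%, against 1.45%, 3.21% and 20.5%). The shares in the FUCO groups are near or below those of all genes, and that in Model against Con was above (25.3% against 17.6%). The count at 0.5 μM was 0 without Model replicate 1 or 2 or FUCO-0.5 replicate 2 and 2 without Con replicate 1, that at 1 μM was 1 without Model replicate 2 or 3 or FUCO-1 replicate 1 or 3, and that at 2 μM was 6 without Model replicate 3.

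**Figure D4:**
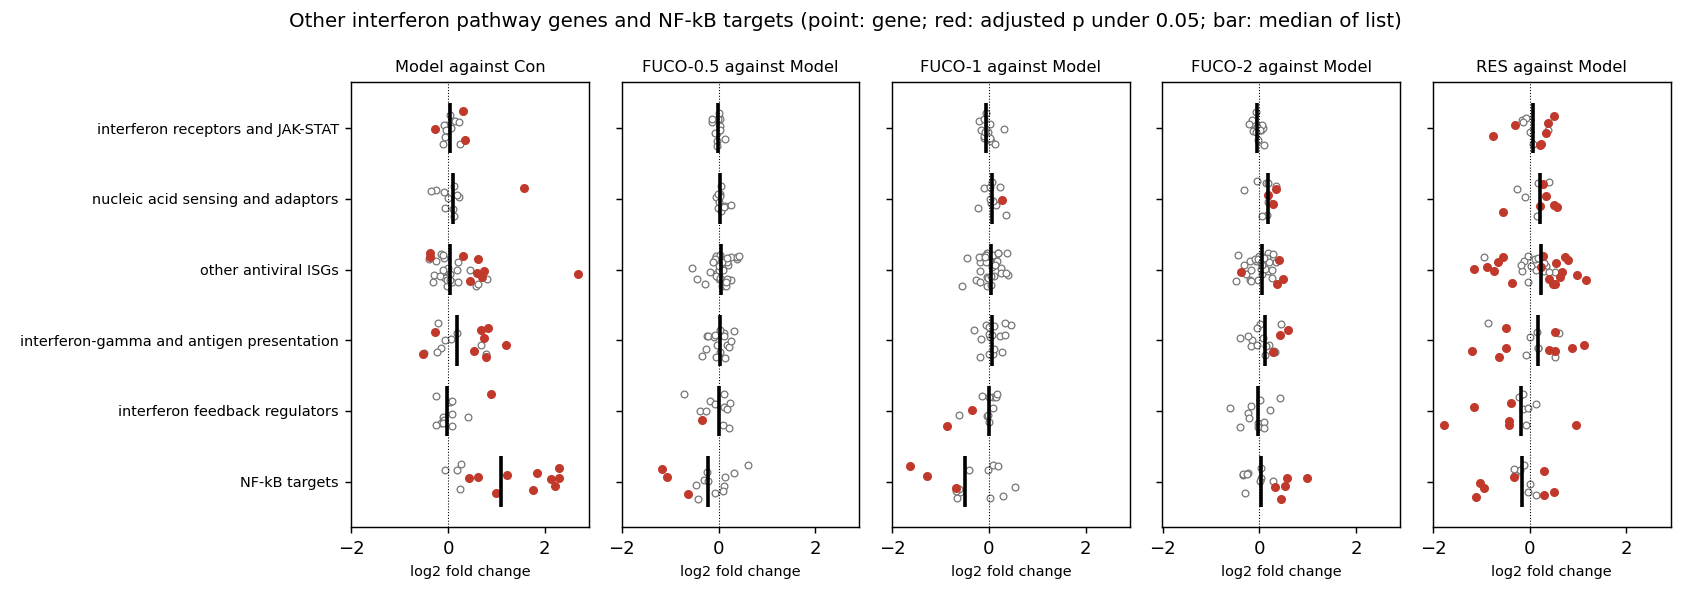
Log2 fold change (x axis) of each tested gene of 6 lists (rows) in the 5 main comparisons. Red points have an adjusted p under 0.05 and black bars are list medians; the bar of the NF-kB targets stands at 1.10 in Model against Con, and those of the 5 interferon lists lie between −0.02 and 0.19.

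Among 33 antiviral genes tested beside the members, 9 were called in Model against Con (27.3%, against 17.6% of all genes), 7 higher and 2 lower. The 2 lower were HELZ2 (−0.38) and TRIM5 (−0.38), named after their values were seen. The call for HELZ2 was lost without Con replicate 1 or 2 or Model replicate 2 or 3 (adjusted p up to 0.0894), and that for TRIM5 without Con replicate 3 or Model replicate 1 (adjusted p up to 0.0823). Of the 9, 1 reached the fold threshold. Examples of the higher ones, among genes with a mean of at least 1 CPM, were IFI6, at a log2 fold change of 0.74, and UBE2L6, the conjugating enzyme for ISG15, at 0.62. Neither reached that threshold. BST2, whose mean was under 1 CPM, held 7 counts in all in Con (0.135 CPM), 49 in Model (0.895 CPM) and 26 in RES (0.403 CPM). The call for IFI6 was lost without Con replicate 2 (adjusted p = 0.0770) or Model replicate 3 (adjusted p = 0.107), and that for UBE2L6 without Con replicate 1 (adjusted p = 0.0594), Con replicate 3 (adjusted p = 0.0705) or Model replicate 3 (adjusted p = 0.0520). OAS3 was called at 0.69 but lost the call under 14 of 28 alternatives, 9 of them a left-out library, with adjusted p up to 0.169. In RES against Model 18 were called (54.5%, against 49.4% of all genes), 12 higher and 6 lower. DDX60, a helicase (1.16), and HERC5, the ligase for ISG15 (0.97), were higher, and IFITM3, which restricts viral entry (−0.89), was lower. In FUCO-2 against Model TRIM14 (0.50) and DTX3L (0.41) were higher and IFITM3 (−0.38) lower, among 4 called (12.1%, against 20.5% of all genes).

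Of 17 genes of interferon-gamma and antigen presentation tested, 8 were called in Model against Con (47.1%, against 17.6% of all genes), 6 higher and 2 lower. HLA-B (1.19), SECTM1 (0.83) and CD74, the invariant chain (0.78), were among the higher. The 2 lower, named after their values were seen, were APOL6 (−0.52, lost without Con replicate 3 or Model replicate 2 or 3, adjusted p up to 0.101) and WARS1 (−0.28). In RES against Model 9 were called (52.9%, against 49.4%), 5 higher and 4 lower, with SECTM1 lower (−1.18) and APOL6 (1.13) and WARS1 (0.88) higher. Of 12 feedback regulators, SOCS1, which inhibits JAK kinases, was the 1 called in Model against Con (8.33%, against 17.6% of all genes). Its log2 fold change was 0.89, and the call was lost without Con replicate 2 (adjusted p = 0.0581). RES against Model had 6 called (50%, against 49.4%), 1 higher and 5 lower. SOCS1 (−1.78) and CISH (−1.15) fell there, while SOCS2 rose (0.96). Of 11 sensors and adaptors, IKBKE, a kinase that activates IRF3, was the 1 called in Model against Con (log2 fold change 1.56). That is 9.09% of the list, against 17.6% of all genes. IKBKE fell with RES (−0.54), where TBK1, its close relative, rose (0.56). With RES 6 of the 11 were called (54.5%, against 49.4%), 5 higher and 1 lower.

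Because the CXCL10 promoter is also read by NF-kB, a list of 18 NF-kB targets was set beside it, of which 14 were tested. In Model against Con 10 (71.4%) were called, all higher (8.43% of all genes were called higher), and the neutrophil chemokines CXCL8 (2.30), CXCL2 (2.29) and CXCL3 (2.21) had log2 fold changes close to the 2.54 of CXCL10. At 0.5 and 1 μM fucoxanthin 3 of the 14 were called at each dose (21.4%, against 1.45% and 3.21% of all genes), all lower. CXCL8 fell against Model by 1.17 on the log2 scale at 0.5 μM and by 1.64 at 1 μM, and CXCL2 fell by 1.07 and 1.27. The mean of CXCL10 was above Model at these doses. At 0.5 μM a DESeq2 fit lost the calls for CXCL8 and CXCL2 (adjusted p = 0.149 and 0.124), while the other DESeq2 fit kept that for CXCL8. Both calls were also lost without any 1 Model or FUCO-0.5 library, among others (adjusted p up to 0.232 and 0.203). At 1 μM that for CXCL2 was lost without FUCO-1 replicate 1 (adjusted p = 0.0575) or 3 (adjusted p = 0.0630). At 2 μM 5 of the 14 were called (35.7%, against 20.5% of all genes), all higher, among them BIRC3 (0.98), NFKB2 (0.58) and NFKBIE (0.52), while CXCL8 (−0.34, adjusted p = 0.439) and CXCL2 (−0.30, adjusted p = 0.462) were not called. With RES 7 were called (50%, against 49.4%), 3 higher and 4 lower. CXCL1 (−1.10), TNFAIP3, an inhibitor of NF-kB signalling (−1.03), and CCL20 (−0.94) were among the 4 that fell. The 3 higher, named after their values were seen, were BIRC3 (0.51, adjusted p = 0.0477), NFKB2 (0.30, adjusted p = 0.0387) and NFKB1 (0.30, adjusted p = 0.0104). The call for BIRC3 was lost in a DESeq2 fit (adjusted p = 0.146). It was also lost without any 1 Model library, RES replicate 1 or 3, FUCO-0.5 replicate 1 or FUCO-1 replicate 1 (adjusted p up to 0.195). That for NFKB2 was lost without Model replicate 1 or 3 or any 1 RES library (adjusted p up to 0.164), and that for NFKB1 without Model replicate 3 (adjusted p = 0.0610). These comparisons share the Model libraries, and the difference in fold change between CXCL10 and the other chemokines was not tested.

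**Figure D5:**
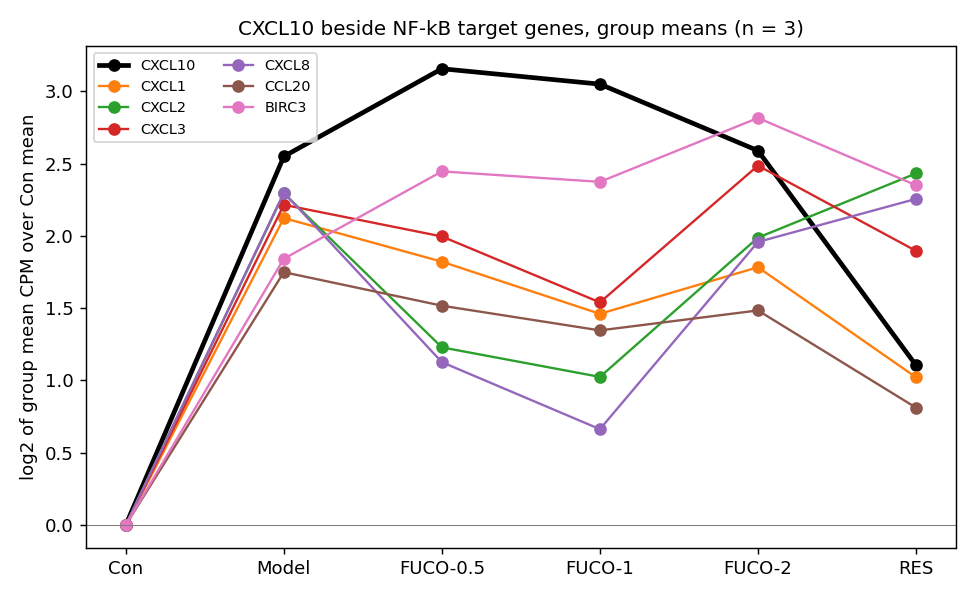
Log2 of the group mean CPM over the Con mean (y axis) for CXCL10 and 6 NF-kB target genes in the 6 groups, n = 3 libraries each. Lines join the groups only to follow each gene; CXCL10 is highest in FUCO-0.5, where CXCL8 and CXCL2 stand below their Model means, and CXCL10, CXCL1 and CCL20 are lower in RES than in Model.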

How the data were processed

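RNA of Hep3B cells was sequenced in 6 groups of 3 libraries, assigned to groups by title. Per the study's methods, the authors enriched polyadenylated RNA, trimmed reads with fastp, aligned them with STAR to GRCh38.p14 and counted reads per gene with featureCounts, and they deposited raw counts without normalization. The strand setting and the treatment of reads with several matches are not given in the sources used here. The methods call the replicates biological, while the labels name no separate cultures, so the p-values measure the spread between these libraries.

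From the counts, genes were filtered with filterByExpr (minimum count 10, minimum total 15), normalized by TMM and fitted in edgeR 4.0.16 (R 4.3.3) with all 18 libraries, 1 term per group and a prior count of 0.125. DESeq2 1.42.0, the study's tool, was an alternative. The scripts were tested on simulated data. Without molecular identifiers, a floor of 3 counts allows for counting error alone. The members and lists were chosen with earlier results of these data known. Beside the members, the text names at most 3 called genes per list and comparison, by fold change, with a mean of at least 1 CPM. It also names any receptor or JAK-STAT gene, genes that overlap a member in RefSeq or GENCODE v44, and the 5 genes most alike to CXCL10, IRF1 and IFIT1. Of the JAK-STAT list, 1 gene is not reported here by name. The markers, BST2 and the relatives of CXCL10 were named outside that rule, after their values were seen. Positions and promoters came from RefSeq GRCh38.p14, and exon lengths from GENCODE v44, where the methods name v46. The correlation of deviations from the group mean between same-numbered libraries of different groups was at most 0.194. Alternatives were other tools, normalizations, filters, a prior count of 2, a replicate block, a fold threshold and each library left out in turn.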

Additional observations from a re-analysis of the deposited data

How the results depend on the processing

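Depth limited OAS1, IFIT1, IFIT2, IFIT3 and MX1, and also CXCL10 in Con (6 to 14 counts per library). The sign of differences near 0 turned with single libraries. In Model against Con, CXCL10 kept its call under 27 alternatives, at log2 fold changes of 2.33 to 3.01. With at least 10 counts in every library, 12850 genes and 5 members were left, CXCL10 was not among them, and 0 members were called. In RES against Model the calls for CXCL10, IRF1 and IFIT2 held under every alternative that tested them, and that for IFIH1 (0.49) failed only the fold threshold. In FUCO-2 against Model 1 member was called with library size alone (IFIH1) and 0 to 1 with single libraries left out (1, IRF1, without FUCO-2 replicate 3).

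The same alternatives for comparisons with Con, between doses and for the lists were added after the data were seen. Members called in FUCO-0.5 against Con were 3 with library size alone, 0 with at least 10 counts in every library and 1 to 2 with a library left out (2 without FUCO-2 replicate 3). In FUCO-1 against Con, 1 was called in DESeq2 with the 2 groups, with at least 10 counts in every library and with the fold threshold, and 1 to 2 with a library left out. In FUCO-2 against Con, 1 was called in DESeq2 and edgeR with the 2 groups and with the fold threshold, 4 with library size alone, and 1 to 3 with a library left out. In RES against Con, 3 were called in DESeq2 with the 2 groups, with at least 10 counts in every library and with the fold threshold, 5 with library size alone, and 3 to 4 with a library left out. In FUCO-2 against FUCO-0.5, 1 (CXCL10, −0.55) was called with no filter on low counts. The list genes called fell to 3, 0, 0, 0 and 6 with the fold threshold (Model against Con, FUCO-0.5, FUCO-1, FUCO-2 and RES against Model). The causes were not tested.

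Log2 fold changes that changed sign with a library left out ran, in Model against Con, from −0.33 to 0.59 for IFIT1, −0.10 to 0.26 for IFIT2, −0.33 to 0.13 for IFIT3, −0.095 to 0.018 for ISG15, −0.39 to 0.25 for MX1 and −0.045 to 0.15 for IFIH1. In FUCO-0.5 against Model they ran from −0.15 to 0.75 for IFIT1, −0.24 to 0.13 for IFIT2, −0.14 to 0.17 for ISG15 and −0.31 to 0.11 for MX1. In FUCO-1 against Model they ran from −0.20 to 0.79 for IFIT1, −0.35 to 0.27 for IFIT2 and −0.38 to 0.18 for MX1, in FUCO-2 against Model from −0.18 to 0.21 for CXCL10, −0.35 to 0.66 for IFIT1 and −0.0085 to 0.13 for ISG15, and in RES against Model from −0.15 to 0.17 for MX1. With library size alone, the sign also turned for ISG15 (0.031) in Model against Con, IFIT2 (0.014) and ISG15 (0.030) in FUCO-0.5, MX1 (0.0035) in FUCO-1 and MX1 (0.10) in RES. None of the reversed values was called.

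With replicate number as a block, the counts of members called stayed at 1, 0, 0, 0 and 4, and CXCL10 had 2.53 in Model against Con and −1.40 in RES against Model. Over 45 pairs of same-numbered libraries the correlation of deviations ran from −0.204 to 0.194 and passed 0.1 in 7. Over 90 pairs with other numbers it ran from −0.281 to 0.291 and passed 0.1 in 8. Whether same-numbered libraries share a batch was not tested.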
